A study of Homo sapiens with 2 samples.

Results

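Focal adhesions are the plaques through which integrins, the receptors that bind collagen and fibronectin outside the cell, are tied to the actin cytoskeleton inside it. Talins and kindlins bind integrin tails and switch the receptors on, vinculin and α-actinin reinforce the link to actin under load, kinases and adaptors such as FAK and p130Cas pass the signal on, and LIM-domain proteins such as paxillin and zyxin dock at the plaque. In collagen-invading fibrosarcoma cells these parts serve traction during elongated, adhesion-dependent migration. The genes described here are 31 listed focal adhesion components, found by symbol among 36601 genes: 15 actin linkers, 6 signalling genes and 10 LIM-domain genes. All 31 were found, and 30 were measured, which means at least 5 UMIs per 1000000 of the library (UPM) in either library. FERMT1 was not.

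The cells were HT1080, an established human fibrosarcoma line labelled as wild type, grown as spheroids of 2000 cells, about 50 per sample, in 500 µl of collagen for 72 h. The control culture is labelled only as control, and the 4B4 culture received 2 µg/ml of 4B4, an antibody that inhibits β1 integrin. No other antibody is named for the control, so β1 integrin blocking and other effects of adding an antibody cannot be told apart. There was 1 library per group. The differences below therefore compare 2 libraries and have no replicate check, and no p-value was computed.

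Kept cells numbered 3402 with a median of 32914 unique molecular identifiers (UMIs) in the control library and 1385 with a median of 68556 in the 4B4 library, and the libraries shared 2 barcodes. All 7 mesenchymal markers reached 5 UPM in both libraries, summing to between 3214.5 and 3302 UPM. Epithelial markers (1 of 5, CLDN4, at 5 UPM) summed to 13.3 UPM in the control and 15.6 in the 4B4 library, and immune markers (0 of 5) to 2.67 and 2.89. Endothelial markers (1 of 4, PECAM1) summed to 32.6 and 47.7 UPM, and KRT5 was at 0 in both libraries. Phase calls on cells thinned to 17000 UMIs gave 2065 G1, 467 S and 567 G2M cells in the control and 1144, 88 and 79 in the 4B4 library.

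As a set, the focal adhesion genes were at nearly the same level in both libraries. Together they made up 2322 UPM in the control and 2249.5 UPM in the 4B4 library, or 0.232% and 0.225% of all UMIs. None of the 30 measured genes differed by 1.5-fold or more with a counting interval on the same side of 1. Over all 11359 measured genes 2.10% were that much higher and 5.82% that much lower in the 4B4 library. At a lower bound, a log2 ratio of 0.32 or more in size, 0 members were higher, against 8.94% of all genes, and 4 were lower (VCL, PARVA, FERMT2 and NEDD9), against 13.3% of all genes. FERMT2 lay at this bound and PTK2 just short of it on the other side. The members' median log2 ratio of 4B4 over control was -0.11, with a range from -0.44 to 0.32, beside -0.01 for all genes. Of the 30 members 15 (50.0%) lay within 1.1-fold, beside 45.3% of all genes. Counting intervals in what follows are at 95% and cover counting error only.

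**Figure D1:**
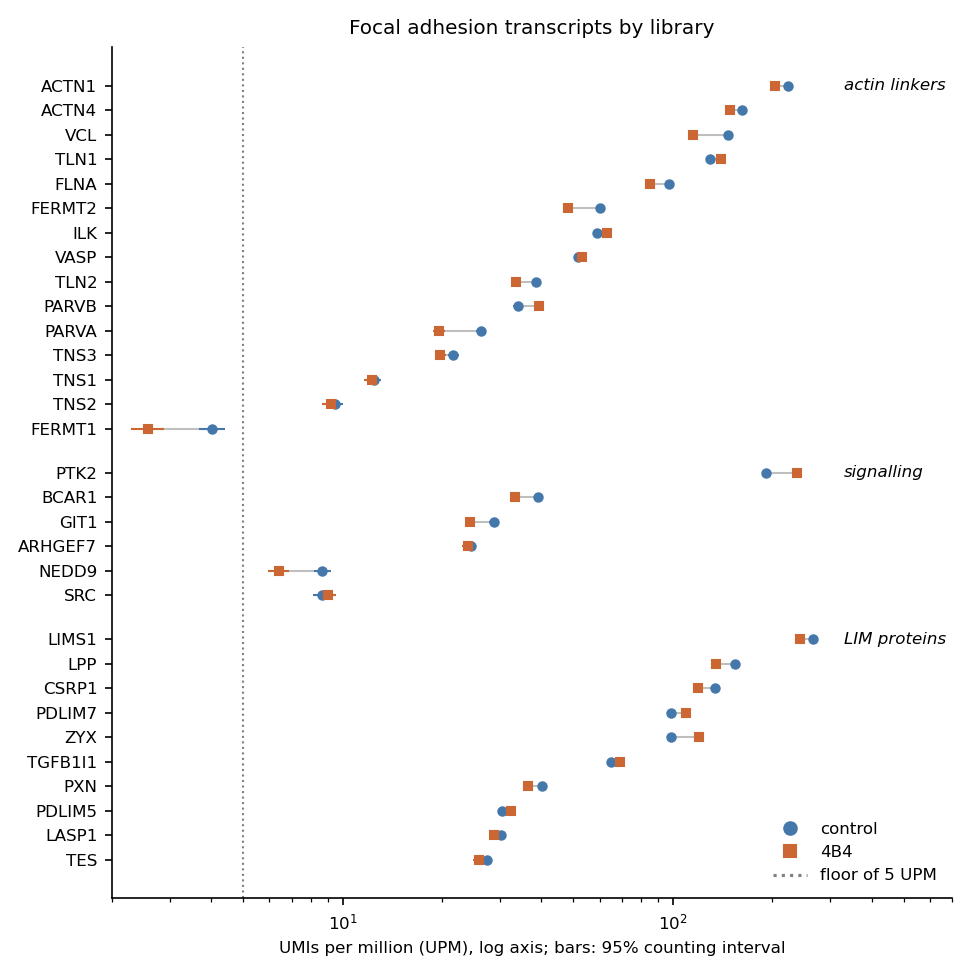
Level of each of the 31 focal adhesion genes in the control (circles) and 4B4 (squares) library, in UPM on a log axis, grouped by role, with 95% Poisson intervals and the floor of 5 UPM as a dotted line. The paired points lie close together, with the widest gaps among measured members at NEDD9, PARVA, VCL and FERMT2 (4B4 lower) and PTK2 (4B4 higher).

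Among the integrin activators, TLN1 (talin-1, the main talin outside muscle and brain) was at 129 UPM (interval 127 to 131) in the control and 140 (138 to 142) with 4B4 (log2 ratio 0.12). TLN2, its paralog, was at 38.6 and 33.5 UPM (-0.20). FERMT2, which encodes kindlin-2, the partner of talin in integrin activation, stood at 60.2 UPM in the control and 48.2 in the 4B4 library (log2 ratio -0.32, interval -0.37 to -0.27). FERMT1, which encodes the epithelial kindlin-1, lay below the floor at 4.03 and 2.58 UPM. The 4B4 library was thus higher for TLN1 and lower for TLN2 and FERMT2. ITGB1, the β1 subunit that 4B4 binds, was at 642 UPM in the control and 780 in the 4B4 library (0.28).

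Vinculin, the talin-binding protein that couples to actin under force, was at a lower level in the 4B4 library. VCL (chromosome 10, 73995193 to 74121363, plus strand, GRCh38) had 147 UPM (145 to 149) in the control and 115 (113 to 117) with 4B4 (log2 ratio -0.35, -0.39 to -0.32). At 17000 UMIs per cell, a VCL UMI was in 83.2% of cells of the control library (81.8% to 84.5%) and 74.1% of the 4B4 library (71.7% to 76.5%). At full depth, where 4B4 cells had more UMIs each, the shares were 91.0% and 92.6%. HT1080 was the only cell type present, so the share that free RNA alone would give could not be read from cells lacking the gene.

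The α-actinins, filamin A, VASP and the tensins differed less by ratio than VCL. ACTN1 and ACTN4, the non-muscle α-actinins that crosslink actin filaments, were at 223 and 204 UPM (log2 ratio -0.13) and at 163 and 149 UPM (-0.12), control first. FLNA, which encodes the actin crosslinker filamin A, was at 97.1 and 85.2 UPM (-0.19). VASP, which promotes filament elongation, was at 51.7 and 53.2 UPM, with an interval of the log2 ratio from -0.01 to 0.09. The tensins, which bind integrin tails and actin at fibrillar adhesions, differed little: TNS1 had 12.5 and 12.3 UPM, TNS2 9.50 and 9.20, and TNS3 21.6 and 19.8. The interval of the ratio included 0 for TNS1 and TNS2 and lay below it for TNS3 (-0.21 to -0.05).

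Promoter letters are shown for the 2 actin linkers with a match to the motif of SRF (the CArG box) or TEAD (GGAATG), factors known to drive many cytoskeletal genes. RefSeq promoters (GRCh38.p14) matched 27 of 31 members, each from 250 bases before to 50 after the start, and both strands were searched. Motifs are in capitals.
VCL (GGAATG, chr10:73997935-73997960, plus strand): ccctcccttaGGAATGggggaggggc
FLNA (CArG box, chrX:154374709-154374738, minus strand): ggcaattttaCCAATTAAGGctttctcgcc
The VCL match starts 171 bases and the FLNA match 94 bases before the start. GGAATG was in 1 of 27 member promoters (3.70%) and 14.0% of 35116 promoters, and the CArG box in 1 of 27 (3.70%) and 1.29%. The AP-1 motif TGANTCA was in 3 of 27 (11.1%: ACTN4, BCAR1 and GIT1) and 7.71%. The motifs do not overlap one another in these promoters. A match describes letters only, and the VCL window starts downstream of the GENCODE gene start given above.

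The adaptors of the ILK, PINCH and parvin complex, which links β1 integrin tails to actin, differed in direction. ILK, the integrin-linked pseudokinase at its centre, was at 58.8 UPM in the control and 63.1 in the 4B4 library (log2 ratio 0.10). PARVA, which encodes α-parvin, was at 26.3 UPM (25.4 to 27.2) and 19.6 (18.8 to 20.4), a log2 ratio of -0.43 (-0.50 to -0.35). PARVB, which encodes β-parvin, was at 33.9 UPM (32.9 to 34.9) and 39.4 (38.2 to 40.5), a log2 ratio of 0.22 (0.15 to 0.28). The parvins thus differed in opposite directions: α-parvin was lower and β-parvin higher in the 4B4 library. At matched depth, a PARVA UMI was in 33.6% of control and 26.0% of 4B4 cells, and a PARVB UMI in 41.9% and 48.1%.

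As a share of the pair's UMIs, β-parvin was 56.3% (Clopper-Pearson interval 55.2% to 57.4%) in the control and 66.8% (65.7% to 67.9%) in the 4B4 library. Over G1 cells alone the shares were 55.6% and 66.5%. LIMS1, which encodes PINCH-1, the LIM-domain partner of ILK, was at 266 UPM in the control and 244 in the 4B4 library (-0.12). Its near-identical copies LIMS3 and LIMS4 held at most 0.134 UPM, and reads shared with them make LIMS1 uncertain. Overlapping genes add uncertainty, since the use of strand in counting is not given: TAF10, opposite ILK, was at 211 and 284 UPM, and SAMM50, on the same strand as PARVB, at 49.1 and 52.2. How far reads from these genes enter the ILK and PARVB values was not tested. Other overlapping genes of over 30% of the member's own level were CREB3 at TLN1, AC068888.1 and SPRYD3 at TNS2, AL139807.1 at NEDD9 and PXN-AS1 at PXN.

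Of the signalling genes, PTK2 was higher and NEDD9, BCAR1 and GIT1 lower in the 4B4 library. PTK2, which encodes FAK, the kinase that autophosphorylates when integrins cluster, stood at 191 UPM (189 to 194) in the control and 239 (236 to 241) with 4B4, which gave the highest log2 ratio of the 30 (0.32, interval 0.29 to 0.34). A PTK2 UMI was in 83.2% of control and 80.9% of 4B4 cells at 17000 UMIs per cell, and in 89.0% and 94.1% at full depth. At 10000 UMIs per cell the share was 0.85 percentage points higher in the 4B4 library, so the direction of this share depended on the depth chosen.

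SRC, the kinase that acts with FAK, was at 8.66 and 9.01 UPM, with an interval of the log2 ratio from -0.07 to 0.18. BCAR1, which encodes p130Cas, a scaffold phosphorylated by SRC, was at 39.1 and 33.3 UPM (-0.23). NEDD9, its relative, was at 8.69 UPM (8.18 to 9.21) and 6.40 (5.95 to 6.87), a log2 ratio of -0.44 (-0.58 to -0.31), and the highest 1% of cells held 18.2% of its UMIs in the control and 21.3% in the 4B4 library. The NEDD9 ratio turned to 0.02 with cells thinned to 17000 UMIs and to 0.10 in cells of 15000 UPM of MALAT1 or more. GIT1 and ARHGEF7, which encode the GIT and β-PIX partners that bring Rac and Cdc42 activity to adhesions, were at 28.7 and 24.3 UPM (-0.24) and at 24.5 and 23.9 UPM (-0.03, interval -0.11 to 0.04). The 6 genes summed to 301 UPM in the control and 336 in the 4B4 library (0.16). PTK2 held most of those UMIs, and the median log2 ratio of the 6 was -0.13.

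Among LIM proteins, ZYX (zyxin, which gathers on strained actin fibres) was at 98.8 UPM (97.1 to 100.5) in the control and 120 (118 to 122) with 4B4 (log2 ratio 0.28, 0.25 to 0.32). LPP, its relative, had 154 UPM (152 to 157) and 135 (133 to 137), a log2 ratio of -0.20. LPP was therefore 61.0% of the UMIs of this pair in the control and 52.9% in the 4B4 library. PXN, which encodes paxillin, the adaptor that recruits FAK, was at 40.1 and 36.4 UPM (-0.14). TGFB1I1, which encodes the paxillin relative Hic-5, was at 65.0 and 69.1 UPM (0.09), and its share of the pair was 61.9% and 65.5%.

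Of the PDZ-LIM proteins, which bind α-actinin and actin fibres, both members were slightly higher: PDLIM7 was at 99.0 and 109.5 UPM (0.15) and PDLIM5 at 30.5 and 32.4 (0.09). PDLIM1, a relative outside the members named after its values were seen, was lower, at 132 and 98.0 UPM (-0.43). CSRP1, which encodes an α-actinin-binding LIM protein, was at 134 and 119 UPM (-0.17). TES, which binds zyxin, was at 27.5 and 25.8 UPM (-0.09), and LASP1, an actin-binding LIM and SH3 protein, at 30.1 and 28.8 with an interval of the log2 ratio from -0.13 to 0.01. The 10 LIM genes summed to 945 UPM in the control and 920 in the 4B4 library (-0.04), and the 15 linkers to 1076 and 994 (-0.11).

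**Figure D2:**
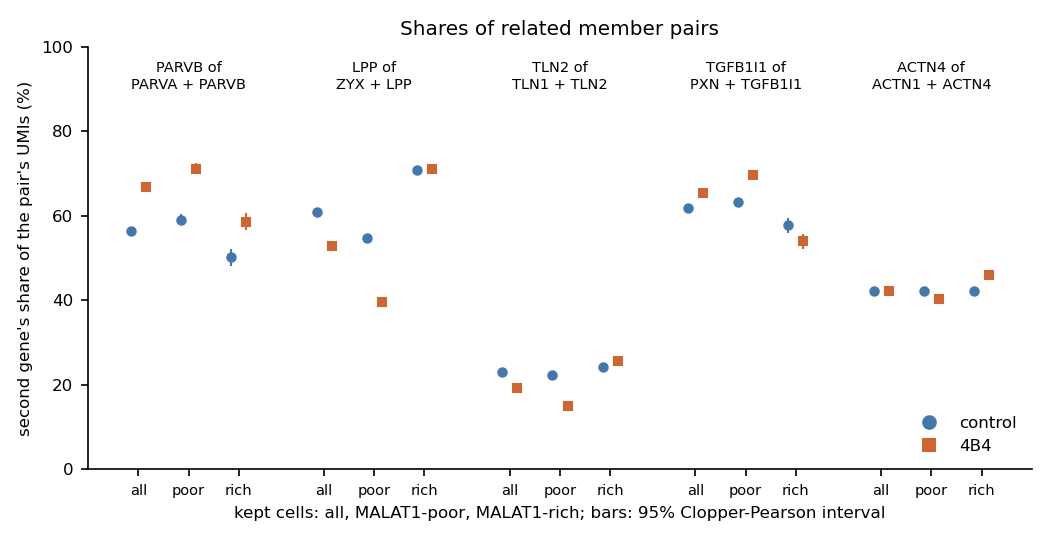
Share of the second gene in the summed UMIs of 5 pairs of related members, in percent, in all kept cells and in MALAT1-poor and MALAT1-rich cells of the control (circles) and 4B4 (squares) library, with 95% Clopper-Pearson intervals. PARVB held a larger share in the 4B4 library in each set of cells, while the LPP share differed in MALAT1-poor cells (54.7% and 39.5%) and was alike in MALAT1-rich cells (71.0% in both).

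Other adhesion genes, 52 of them listed beside the members, had 39 measured, of which 0 were higher and 6 lower by 1.5-fold, with a median log2 ratio of -0.10. Over all genes 2.10% were higher and 5.82% lower. The 4 largest differences were AJUBA, a LIM protein of the zyxin group, at 9.13 UPM in the control and 3.74 in the 4B4 library (-1.29), TNS4, the short tensin that lacks an actin-binding part, at 8.27 and 3.75 (-1.14), FHL2, a LIM-only co-factor, at 101 and 50.4 (-1.01), and ASAP1, an Arf GTPase-activating protein that binds FAK, at 254.5 and 131 (-0.96). At the lower bound 2 were higher and 9 lower, against 8.94% and 13.3% of all genes. RSU1, which binds PINCH-1, was at 53.3 and 67.4 UPM (0.34), and SHARPIN, an inhibitor of integrin activation, at 49.9 and 62.8 (0.33). RSU1 and SHARPIN were chosen for naming after their values were seen.

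Within each library the members differed between cells with little and much MALAT1, a long noncoding RNA retained in the nucleus, over a wider range (log2 ratios from -0.51 to 0.95 in the control and from -0.72 to 1.99 in the 4B4 library) than between the libraries. Cells were split at 15000 UPM of MALAT1, which gave 2288 MALAT1-poor and 1114 MALAT1-rich control cells, and 855 and 530 4B4 cells. The ratio of 1.99 was that of NEDD9, which lay below the floor in MALAT1-poor 4B4 cells (3.30 UPM), and PTK2 had 1.91. The split is a range of a per-cell level, not a cell type: in the control 192 cells (5.64%) and in the 4B4 library 72 (5.20%) had a MALAT1 level within 10% of the bound. MALAT1-rich cells had fewer UMIs (medians 29828 against 34920 in the control, 60245 against 74807 in the 4B4 library), more mitochondrial UMIs (9.84% against 8.61%, and 8.11% against 7.26%) and more G1 cells (87.0% against 56.8%, and 90.4% against 85.4%). The part of depth, mitochondrial share and phase in the member differences was not tested.

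PTK2 was at 150 UPM in MALAT1-poor and 289 in MALAT1-rich control cells (log2 ratio 0.95), and at 128 and 479 in the 4B4 library (1.91). LPP was at 121 and 234 UPM in the control (0.95) and 84.7 and 243 in the 4B4 library (1.52). VCL was at 127 and 193 UPM (0.60) and at 86.9 and 175 (1.01). All 3 were higher in MALAT1-rich cells of both libraries. In the opposite direction, TGFB1I1 was at 71.0 UPM in MALAT1-poor and 50.8 in MALAT1-rich control cells (-0.48) and at 79.0 and 47.9 in the 4B4 library (-0.72). CSRP1 was at 147 and 104 UPM (-0.51) and at 136 and 83.1 (-0.71).

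By the 1.5-fold rule, 6 of 30 members were higher and 0 lower in MALAT1-rich than in MALAT1-poor control cells, where 24.2% of all genes were higher and 5.48% lower. In the 4B4 library 10 of 30 were higher and 2 lower, where 43.0% of all genes were higher and 8.83% lower. NEDD9, 1 of these 10, reached the floor there only through MALAT1-rich cells, where it was high (13.1 UPM, against 3.30 in MALAT1-poor cells). The shares of all genes include any genes of that kind. The members' median log2 ratios were 0.16 and 0.38, beside 0.18 and 0.42 for all genes. As a set, the members thus lay near the background. Their order was much the same in both libraries: the 30 log2 ratios had a Pearson correlation of 0.91 between libraries, and 26 of 30 had the same sign.

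That order followed the genomic span of the gene, from transcription start to end in GENCODE release 29. Of 13 members spanning 100000 bp or more, 12 were higher in MALAT1-rich cells in each library, with median log2 ratios of 0.53 in the control and 1.16 in the 4B4 library. Of 9 members spanning under 30000 bp, 1 was higher in the control and 3 in the 4B4 library, with medians of -0.17 and -0.39. The 8 in between had medians of 0.11 and 0.38. Across the 30 genes, which share their libraries and depth, Pearson's correlation with log10 span was 0.77 in the control and 0.86 in the 4B4 library. Across 11306 genes it was 0.57 and 0.70, so the relation was not limited to focal adhesion genes. Whether intronic reads are part of these counts, the PTK2, LPP and VCL levels included, is not stated in the sources used here, and their part in the relation was not tested.

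PARVB stood apart from this order. It spans 173739 bp, about as much as PARVA with 158172 bp, but had log2 ratios of -0.16 in the control and -0.07 in the 4B4 library, where PARVA had 0.35 and 0.73. ACTN1, with 105298 bp, was near 0 in both libraries (0.08 and 0.07), whereas VCL, with 126171 bp, was not.

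**Figure D3:**
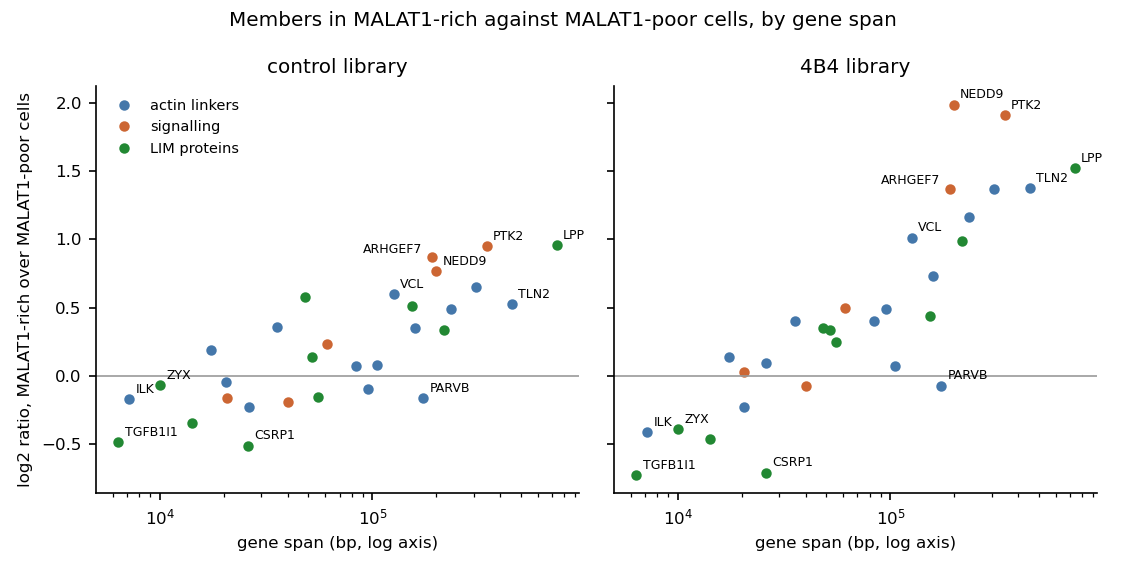
Log2 ratio of MALAT1-rich over MALAT1-poor cells against gene span (bp, log axis) for the 30 measured members, one panel per library, coloured by role. Members spanning 100000 bp or more sit above 0 except PARVB, and those under 30000 bp sit mostly below it. The ratios spread more widely in the 4B4 library.

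The difference between the libraries depended on which cells were compared. In MALAT1-poor cells the median log2 ratio of 4B4 over control was -0.11 over all genes and -0.21 over the members, and in MALAT1-rich cells 0.09 and 0.06. In MALAT1-poor cells 0 members were higher by 1.5-fold, against 2.93% of all genes, and 3 were lower, against 13.7%: TLN2 (34.1 UPM in the control, 22.3 in the 4B4 library, -0.61), PARVA (24.3 and 16.2, -0.59) and NEDD9 (7.18 and 3.30, -1.12). NEDD9 reached the floor there only through the control, where it was high. In G1 cells under the same MALAT1 bound, compared after the data were seen, TLN2 (-0.36) and PARVA (-0.54) came short of 1.5-fold and NEDD9 had -0.99. In MALAT1-rich cells 1 was higher, against 3.22% of all genes, and 0 were lower, against 2.12%. That member was PTK2, at 289 UPM in the control and 479 in the 4B4 library (0.73, interval 0.69 to 0.76), where MALAT1-poor cells had -0.23 (-0.27 to -0.19).

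MALAT1-poor cells of the libraries were not matched in MALAT1, with medians of 3652 UPM in the control and 937.5 in the 4B4 library. Narrower ranges, chosen after the data were seen, gave closer medians except in the highest. PTK2 was at 48.9 UPM in the control and 51.0 in the 4B4 library in cells under 1000 UPM of MALAT1, a log2 ratio of 0.06. From 1000 to 5000 UPM it was at 141 and 117 (-0.27), and from 5000 to 15000 at 217 and 250.5 (0.21). From 15000 to 30000 it was at 274 and 394 (0.52), and from 30000 at 316 and 614.5 (0.96). The PTK2 ratio was thus near 0 in the lowest range and largest in the highest, where the median MALAT1 was 39040 UPM in the control and 45826 in the 4B4 library and the median log2 ratio of all genes was 0.11.

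VCL was lower in the 4B4 library in 4 of the 5 ranges, with log2 ratios from -0.53 to -0.24, and had 0.05 (-0.03 to 0.13) in the highest. LPP had -0.18, -0.48, -0.19, -0.06 and 0.19 from the lowest range to the highest. CSRP1 was lower in all 5, from -0.57 to -0.14, and PARVB had ratios from 0.02 to 0.39. PARVA had ratios from -0.63 to -0.07, with an interval that included 0 in the highest range only.

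**Figure D4:**
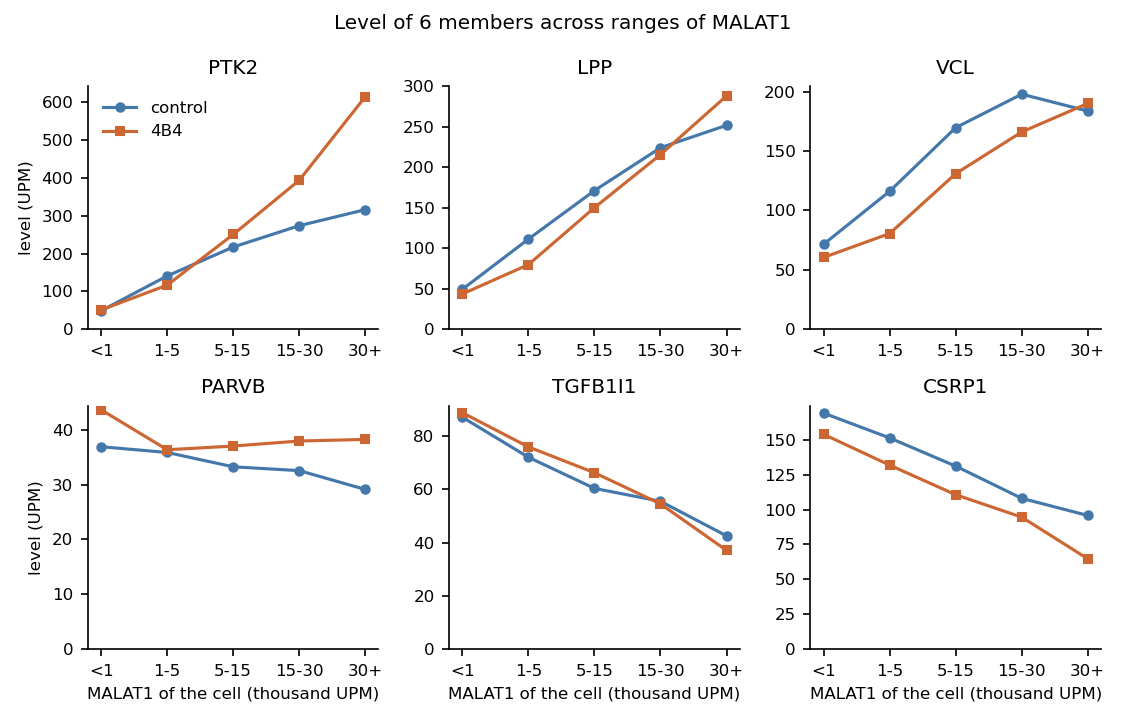
Level of 6 members (UPM, linear axis from 0) in cells of 5 ranges of MALAT1 (labelled in units of 1000 UPM), for the control (circles) and 4B4 (squares) library. PTK2 and LPP are higher in each range of more MALAT1, PTK2 most in the 4B4 library (614.5 UPM against 316 in the highest range). VCL does the same in the 4B4 library but in the control is at 198 UPM from 15000 to 30000 and 184 above that, while TGFB1I1 and CSRP1 are lower in each range of more MALAT1 and PARVB lies between 29.1 and 43.6 UPM.

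**Figure D5:**
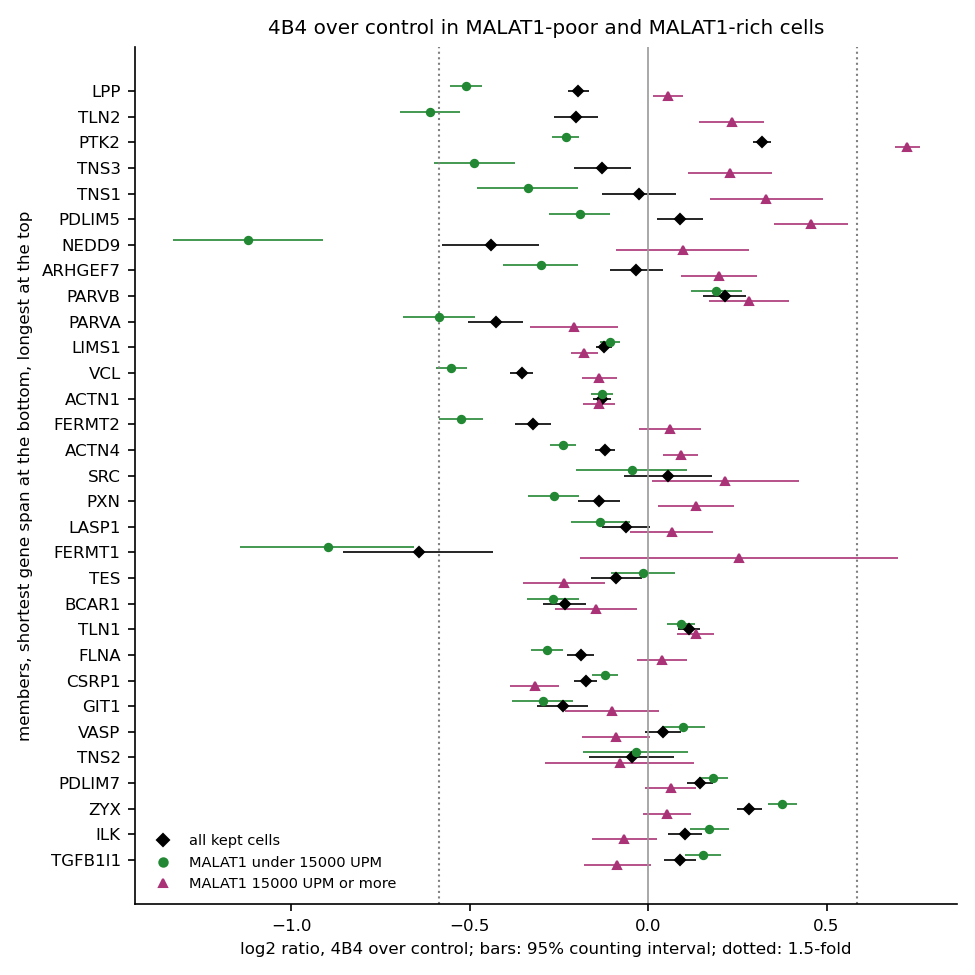
Log2 ratio of 4B4 over control for each member, ordered by gene span, in all kept cells (diamonds), MALAT1-poor (circles) and MALAT1-rich (triangles) cells, with 95% counting intervals and dotted lines at 1.5-fold. Most long genes at the top have MALAT1-poor ratios below 0 and MALAT1-rich ratios above them, while the 6 shortest genes at the bottom have the reverse order.

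Few members differed by 1.5-fold between G1 and G2M cells, while their median log2 ratios of G2M over G1 were close to those of all genes. The medians were 0.10 in the control (over 31 members, FERMT1 included) and 0.15 in the 4B4 library, beside 0.06 and 0.14 for all genes. Comparing G2M with G1 cells of the control, 2 of the 30 measured members were higher by 1.5-fold, against 13.6% of all genes, and 0 were lower, against 6.74%. They were FERMT2 (49.2 UPM in G1 and 78.8 in G2M cells, log2 ratio 0.68) and TNS1 (11.0 and 17.3, 0.65). FERMT1 was at 2.69 UPM in G1 and 5.99 in G2M cells and is not counted, since it reached the floor only in the phases where it was high. The shares of all genes include any genes of that kind, and counted alike, 3 of 31 members were higher in the control. In the 4B4 library TNS1 alone was higher (11.5 and 19.9 UPM, 0.78), 1 of 30 against 14.6% of all genes, and 0 were lower, against 3.12%. FERMT2 had 0.52 there. PXN (0.56 and 0.52) and ACTN4 (0.55 in both) came just short of 1.5-fold in both libraries. For S over G1 cells FERMT2 had 0.61 in the control and 0.49 in the 4B4 library. The share of all genes that differed between S and G1 cells was not counted. The 4B4 library held fewer cells called S or G2M, and over G1 cells alone the FERMT2 ratio of 4B4 over control was -0.11, against -0.32 in all cells. The VCL and PARVA ratios were -0.35 and -0.43 in G1 cells, -0.12 and -0.27 in S cells, and -0.13 and -0.44 in G2M cells. The widest ratios in G2M cells, of which the 4B4 library had 79, were those of PTK2 (0.68) and NEDD9 (-0.77). The share of all genes that differed this much between the libraries within S or G2M cells was not counted.

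Single cells of both libraries carried a like amount of these transcripts. At 17000 UMIs per cell the median cell held 38 member UMIs in the control (5th to 95th percentile 22 to 61) and 37 in the 4B4 library (21 to 62), and a median of 16 members had a UMI in each. Among G1 cells under 15000 UPM of MALAT1 (1184 control and 710 4B4 cells), the variance of PTK2 over its mean was 2.94 and 2.85, where counting noise alone gives about 1, and that of LIMS1 was 2.30 and 2.11. LPP had 1.89 and 2.11, while VASP had 1.07 and 1.18 and ILK 1.08 and 1.02.

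In the same cells, Spearman's correlation of each member with the sum of the others had a median of 0.12 in the control and 0.13 in the 4B4 library over the 26 members at 20 UPM or more, beside 0.05 and 0.07 for other genes. LPP (0.36 and 0.34) and VCL (0.33 and 0.34) had the highest values, and PTK2 had 0.31 and 0.28. The same 3 genes correlated with MALAT1 (LPP 0.48 and 0.48, VCL 0.34 and 0.34, PTK2 0.56 and 0.61). Correlation with the sum of CCN1, CCN2 and ANKRD1, targets of YAP and TEAD, had a median of 0.03 and 0.01 over the members, with a range from -0.09 to 0.15. Those 3 targets were lower in the 4B4 library, at 157 and 59.6, 68.2 and 32.9, and 116 and 39.9 UPM. All these correlations share library and depth. Those with the summed members and with the YAP targets were weak, and values this weak in sparse counts are no finding. With MALAT1, the PTK2 and LPP values were larger, above the 95th percentile of other genes (0.34 in the control and 0.36 in the 4B4 library), and were not tested.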

How the data were processed

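Single-cell 3′ RNA libraries (10x Genomics, version 3 chemistry, per the labels' protocols) were analysed for 2 samples, grouped by their treatment labels. The deposited files hold UMI counts for each gene and barcode; the file headers name Cell Ranger 7.1.0 as their source. The submitters' processing notes give GRCh38 as the build and list Seurat 5.0.1. The sources used here do not give the annotation, nor whether intronic or antisense reads were counted.

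Barcodes needed 1000 or more genes and no more than 20% mitochondrial UMIs: 3402 of 3642 with 127218114 UMIs (control) and 1385 of 1759 with 116451080 UMIs (4B4) passed. UPM values are sums of a gene's counts in these cells per 1000000 of the library's kept UMIs. Since 3′ UMIs tag one end of a transcript, levels were not divided by length and genes were not ranked against each other. Ratios are log2 with no pseudocount. Levels carry exact Poisson intervals, ratios Clopper-Pearson intervals of the conditional share, and shares Clopper-Pearson intervals, at 95%. A gene was called at 5 UPM or more in either library, a ratio of at least 1.5 and an interval on the same side of 1. Shares and phases used cells thinned to 17000 UMIs, which left out 303 control and 74 4B4 cells. Phases were called with scanpy 1.11.5 from 43 S and 54 G2M genes; 228 and 59 cells lay within 0.05 of the bound. No doublet caller was run. Scripts used Python 3.11.15, and TMM scaling used edgeR 4.0.16. The ratio step was tested on simulated Poisson counts only. These held no variation between cells or cultures, so the test does not show how the intervals behave under such variation.

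All members are named, as are the 4 largest called ratios of the other adhesion genes. The members and lists were chosen with earlier results of these data known, and the ranges of MALAT1 and of gene span after these data were seen. Positions and spans are those of GENCODE release 29, joined by gene ID.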

Additional observations from a re-analysis of the deposited data

Results flagged for a closer look

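The ratio of 4B4 over control was taken relative to the median of all genes (-0.11 in MALAT1-poor and 0.09 in MALAT1-rich cells, log2). For 8 members it lay on opposite sides of 0 in the 2 sets of cells, with both counting intervals clear of 0. With 1 library per group the difference was not tested. PTK2 had a log2 ratio higher by 0.96 in MALAT1-rich than in MALAT1-poor cells, TLN2 by 0.85 (0.845), TNS3 by 0.72 (0.716) and TNS1 by 0.67. These 4 genes were relatively lower with 4B4 in MALAT1-poor cells and relatively higher in MALAT1-rich cells. MALAT1-poor cells were not matched in MALAT1 (medians 3652 UPM in the control and 937.5 in the 4B4 library), and in narrower ranges PTK2 had 0.06 under 1000 UPM, -0.27 from 1000 to 5000 and 0.21 from 5000 to 15000. The opposite order was found for TGFB1I1 (MALAT1-rich minus MALAT1-poor -0.24), ILK (-0.24), TES (-0.22) and VASP (-0.19). The first 4 span 234395 bp or more, and the other 4 span 48291 bp or less. Further measured members changed side with at least 1 interval that included 0. Of these, PXN, PDLIM5, ARHGEF7 and NEDD9 had the order of PTK2, and ZYX, PDLIM7, TNS2 and LIMS1 that of TGFB1I1. PXN spans 55333 bp and LIMS1 152892 bp, so the split by span was not as clean among them.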

How the results depend on the processing

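The count of 0 members higher by 1.5-fold became 1 in cells of 15000 UPM of MALAT1 or more, where the members' median turned from -0.105 to 0.0587 (log2), a setting added after seeing the data. The count of 0 lower became 3 in cells under 15000 UPM of MALAT1, where the median was -0.21, 1 in G1 cells under that bound (NEDD9, also added after seeing the data), 1 with no floor (FERMT1), and 4 at the lower bound of 0.32 on the log2 scale. Other settings left both counts at 0, with medians over the measured members from -0.143 to -0.0189. Over the 13 settings for single ratios, 10 of 30 measured members kept their sign (TLN1, VCL, ACTN1, PARVA, PARVB, BCAR1, GIT1, ZYX, CSRP1 and PDLIM7) and 20 turned in at least 1, among them TNS2 only under TMM scaling, which shifts every ratio alike. The members' median lay below that of all genes in each setting, by 0.034 to 0.109. No paired analysis was possible because each group has 1 library. Counting intervals do not cover variation between cultures, so differences this small cannot be told apart from those between any 2 libraries.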
